A study of Mus musculus with 2 samples.

Results

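The regions described here are 3883 shallow clusters of crosslinked reads in an iCLIP library made with anti-Rbfox1 antibodies from cultured mouse forebrain neurons. The chromosome order of the deposited read list starts again several times, which divides its lines into 11 blocks, and the clusters come from block 4. The meaning of these blocks is not stated in the labels or the file. Reads of 1 strand in that block were joined where their crosslink positions lay within 20 nt of the next, and clusters of 2 to 9 reads were kept. They are 3883 of the 4982 clusters of the block (77.9%, exact 95% interval 76.8 to 79.1), of 10134 clusters in the whole library. They hold 15050 of its 64820 reads (23.2%). Of the others in the block, 1098 hold 10 reads or more and are called deep here, and 1 holds a single read. The clusters were chosen by their number of reads, so cluster size is given as a description without a test.

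The study used 2 libraries, 1 per antibody, both from the cytoplasmic fraction of forebrain neurons at 14 days in vitro (DIV) that had been irradiated with 254 nm light at 500 mJ/cm2. The anti-Flag precipitate served as the control, and its block 3, with 185 reads in 70 clusters, is the partner of block 4, matched to it through reads that overlap between the libraries. The labels give no strain, genotype or number of cultures, and no group has a replicate. Intervals therefore cover counting error only, and a test says only how clusters of these samples differ, with no replicate check of the antibodies.

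Neurons express Rbfox1, a protein that binds RNA and recognises the short RNA element GCAUG. Its nuclear form is known as a regulator of alternative splicing, and a splice form without the nuclear signal stays in the cytoplasm, where it binds messenger RNAs, often in their 3′ untranslated regions. In iCLIP, ultraviolet light joins a protein to the RNA it touches, and the enzyme that copies the RNA often halts there, so that the position just before a read marks the contact. A deep cluster marks a place contacted in many fragments, while a shallow one rests on few. The genes and the letters under the clusters were not analysed here, because the positions are those of the mm9 build and no genome or annotation of that build was used here.

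Shallow clusters made up most of the places in the block but a smaller part of its reads. They held 31.3% of the 48064 reads of block 4 (30.9 to 31.7), against 33013 reads in the 1098 deep clusters. Numbers fell steadily with size, from 1275 clusters of 2 reads (32.8% of the shallow clusters) and 872 of 3 reads (22.5%) to 556 of 4, 372 of 5, 286 of 6, 226 of 7, 162 of 8 and 134 of 9. The limit of 10 reads cuts through a continuous range. Just inside it, the 134 clusters of 9 reads had a median of 7 crosslink positions spread over 20 nt, and just outside it the 112 clusters of 10 reads had 8 positions over 23 nt. In the control block 43 of 70 clusters held 2 reads, 17 held 3, 4 held 4, 5 held 5 and 1 held 7.

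**Figure D1:**
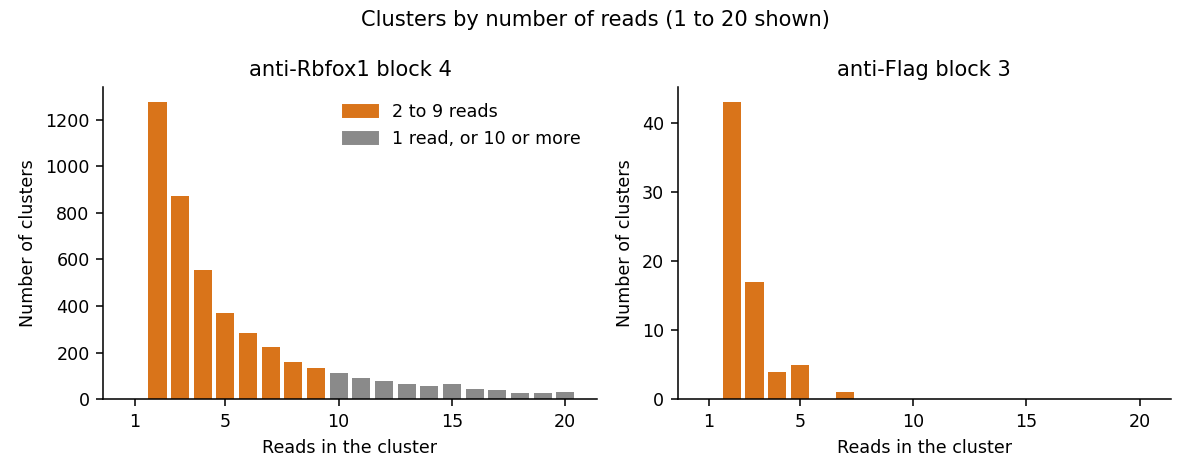
Number of clusters (vertical axis) by number of reads in the cluster (horizontal axis, 1 to 20) in block 4 of the anti-Rbfox1 library and block 3 of the anti-Flag library, with clusters of 2 to 9 reads in orange. The anti-Rbfox1 counts fall from 1275 at 2 reads to 134 at 9 and 112 at 10 with no step at the limit, and the control ends at 7 reads.

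Within a shallow cluster the contacts lay close together. The joining distance of 20 nt bounds their spacing, and 39 of the 3883 clusters (1.00%) held a gap of 16 to 20 nt. The spans are therefore given as a description. The median cluster held 3 reads (mean 3.88) at 3 different positions, the positions spanned 11 nt (quartiles 6 and 15), and the reads together covered 43 nt (36 to 52). In 2604 of the 3883 clusters (67.1%, 65.6 to 68.5) no position held more than 1 read. All 1275 clusters of 2 reads are among them, since each had 2 positions in the deposited list, and among clusters of 3 to 9 reads the number was 1329 of 2608 (50.96%, 49.02 to 52.9). In all, 249 (6.41%) had a position with 3 reads or more. The reads themselves were like those of the deep clusters in length, with a median of 28 nt in both and quartiles of 23 and 35 nt in shallow against 22 and 35 nt in deep clusters. Lengths under 20 nt were found in 8.62% of the reads in shallow clusters, in 10.7% of those in deep ones and in 14.6% of the control block.

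The 1275 clusters of 2 reads show how the contacts were spaced. In 245 of them (19.2%, 17.1 to 21.5) the positions lay 1 nt apart, and in 126 of those 245 both reads also ended at the same 3′ base. The other 119 pairs 1 nt apart had different 3′ ends, compared with 94 such pairs at 2 nt. From 2 to 15 nt, pairs with different 3′ ends numbered between 47 and 94 at each distance. Past 15 nt there were almost none: 1272 of 1275 pairs (99.8%) lay within 15 nt although the joining distance allowed 20. Across the block, 32863 of 32886 crosslink positions (99.9%) had another within 15 nt, so a limit near that distance is a property of the deposited list. In the control block, 33 of 43 clusters of 2 reads (76.7%, 61.4 to 88.2) were pairs 1 nt apart with a shared 3′ end, against 9.88% (8.30 to 11.7) among the anti-Rbfox1 pairs.

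**Figure D2:**
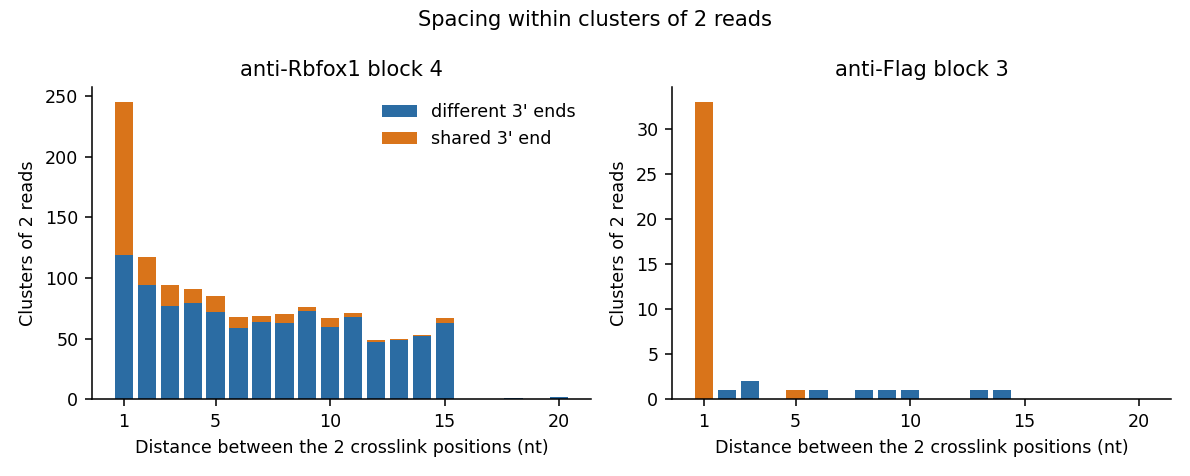
Clusters of 2 reads (vertical axis) by the distance between their crosslink positions in nt (horizontal axis) in block 4 of the anti-Rbfox1 library and block 3 of the control, with pairs sharing a 3′ end in orange. Anti-Rbfox1 pairs extend over all distances up to 15 nt, with 245 at 1 nt, and 33 of the 43 control pairs lie at 1 nt with a shared 3′ end.

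The fullest shallow clusters held 9 reads at 9 different positions, and 11 clusters on 9 chromosomes tied at these values. The widest of them lay at chr4:40680723-40680793 (plus strand, build mm9 for all coordinates), with positions spread over 39 nt. At chr10:77899504-77899571 (minus strand), 9 positions spanned 43 nt with no other cluster within 1000 nt. The cluster at chr2:6461048-6461099 (minus strand) was the most compact, with 9 positions in 19 nt. Of the 11, 2 lay within 1000 nt of a deep cluster, against 66 of all 134 clusters of 9 reads and 17.7% of all shallow clusters. The difference was not tested. At chr4:34035696-34035762 (plus strand) the deep cluster was 66 nt away, and the reads at chr3:138590329-138590374 (minus strand) overlapped a deep cluster. None of the 11 overlapped a control read, which 0.206% of all shallow clusters did.

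Shallow clusters fell into 3 surroundings. Same-strand clusters of the block no more than 1000 nt apart were grouped into a stretch. Of the shallow clusters, 1833 (47.2%, 45.6 to 48.8) stood alone, 1337 (34.4%) lay in 545 stretches made of shallow clusters only, and 713 (18.4%, 17.2 to 19.6) shared a stretch with a deep cluster. The clusters differed along this series, with 44.6% of 2 reads among the lone ones (42.3 to 46.9), 27.4% among those in shallow stretches and 12.9% beside deep clusters (10.5 to 15.6). Mean reads were 3.28, 3.96 and 5.26. These are sizes within the range the choice of clusters allowed and are given as a description. On the opposite strand, 10 of the 3883 shallow clusters (0.258%) had a cluster of the block within 1000 nt.

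Of the 545 stretches of shallow clusters only, 382 had 2 clusters, 111 had 3, 34 had 4 and 18 had 5 or more. Their median length was 361 nt (quartiles 179 and 716). In 229 of them the clusters added up to 10 reads or more, so that a place made of several shallow clusters can hold as many reads as 1 deep cluster.

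The fullest such stretch ran over 709 nt at chr4:40680215-40680923 (plus strand), with 42 reads in 8 clusters. From its 5′ end the clusters held 7, 6, 7, 3, 2, 9, 2 and 6 reads. The 9-read cluster named above for its width is the sixth of them. Reads lay in clusters along the whole stretch. No cluster could exceed 9 reads, because stretches with a deep cluster were left out here. At chr9:111178561-111179699 (plus strand), 7 clusters held 5, 7, 2, 4, 7, 2 and 4 reads. At chr6:86937487-86939506 (plus strand), 7 clusters held 5, 4, 4, 4, 6, 6 and 2 reads over 2020 nt. The thinnest of the longer stretches was at chr4:97779043-97780783 (plus strand), where 6 of 7 clusters had 2 reads and the fourth had 4. At chr14:63761279-63761973 (plus strand), 6 clusters held 6, 4, 4, 7, 6 and 5 reads within 695 nt. None of these 5 stretches overlapped a control read, and neither did 3875 of the 3883 shallow clusters.

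The stretch with most shallow clusters also held deep ones. At chr2:6462920-6467026 (minus strand), 12 shallow and 7 deep clusters were interspersed over 4107 nt with 166 reads. Its deep clusters held between 10 and 22 reads and were themselves near the limit. The deepest, of 22 reads, lay at the 3′ end. At the 5′ end stood a cluster of 2 reads. Next to the stretch, 1821 nt to the 3′ side of its last deep cluster, lay the compact cluster of 9 reads named above. A stretch at chr9:75413449-75415098 (minus strand) held 6 shallow and 5 deep clusters with 147 reads, of which 52 fell in 1 deep cluster.

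**Figure D3:**
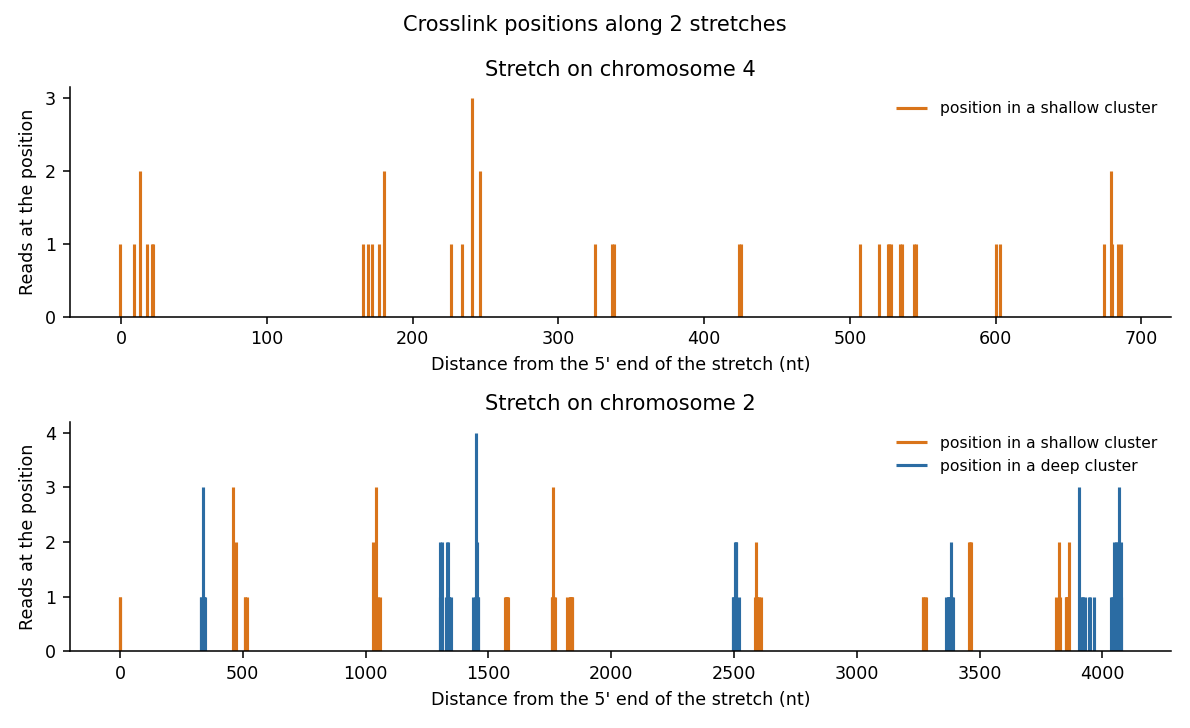
Reads at each crosslink position (vertical axis) against the distance in nt from the 5′ end of the stretch (horizontal axis) for the stretch of 8 shallow clusters on chromosome 4 and the stretch of 12 shallow (orange) and 7 deep (blue) clusters on chromosome 2. Most positions in both hold 1 read, and shallow and deep clusters are interspersed along the stretch on chromosome 2.

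Deep clusters had shallow ones on either side. Within 1000 nt on the same strand, 687 of the 3883 shallow clusters (17.7%, 16.5 to 18.9) had a deep cluster, measured between the nearest outer bases. For 299 of them the nearest deep cluster was on the 5′ side, for 319 on the 3′ side, and for 69 the reads overlapped it. The 5′ share of 48.4% had an interval of 44.4 to 52.4, so no side was favoured beyond counting error. Numbers dropped with distance, from 159 within 50 nt but without overlap, to 99 in the next 50 nt and 103 in the whole range from 501 to 1000 nt. Whether a cluster this close stands apart from a deep one can depend on the joining distance, which applies to crosslink positions and not to outer bases. With clusters that overlapped a deep one or lay within 50 nt of it left out, 12.6% of the remaining shallow clusters were near a deep cluster.

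Shallow clusters near a deep cluster were fuller than the rest, again as a description of sizes within the chosen range. The 687 near clusters had a mean of 5.26 reads and 89 of them (12.95%, 10.5 to 15.7) held 2 reads, against 3.58 reads and 37.1% (35.4 to 38.8) in the 3196 others. The share of 2-read clusters stayed low well beyond the edge of a deep cluster, at 17.04% from 201 to 500 nt, 14.6% from 501 to 1000 nt and 15.4% from 1001 to 5000 nt (10.04 to 22.3, 149 clusters). Among the 3047 clusters farther than 5000 nt it was 38.2% (36.4 to 39.9). The number of RNA molecules at each place was not measured in these libraries, so a transcript with more copies and one with more contacts per copy cannot be told apart. The plus strand held 47.3% of the near clusters (43.5 to 51.1) and 50.2% of the others (48.5 to 51.97; two-sided Fisher's exact p = 0.178, adjusted over 2 tests 0.178). A median read length above 28 nt was found in 48.03% and 52.8% (Fisher's exact p = 0.0257, adjusted 0.0514), which missed the threshold of 0.05. Taken over single reads, the median was 28 nt in both groups. A median per cluster also depends on the number of reads, which differed between the groups.

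**Figure D4:**
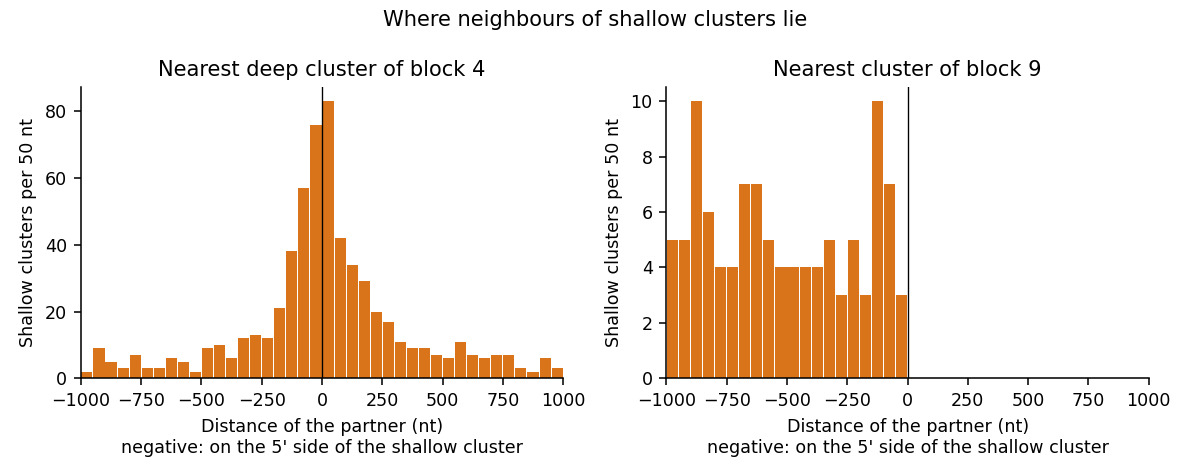
Shallow clusters per 50 nt (vertical axis) by the signed distance in nt to the nearest deep cluster of block 4 and to the nearest cluster of block 9 (horizontal axes), overlapping pairs left out. Deep clusters lie on both sides, 299 and 319, while all 105 neighbours from block 9 lie on the 5′ side.

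**Figure D5:**
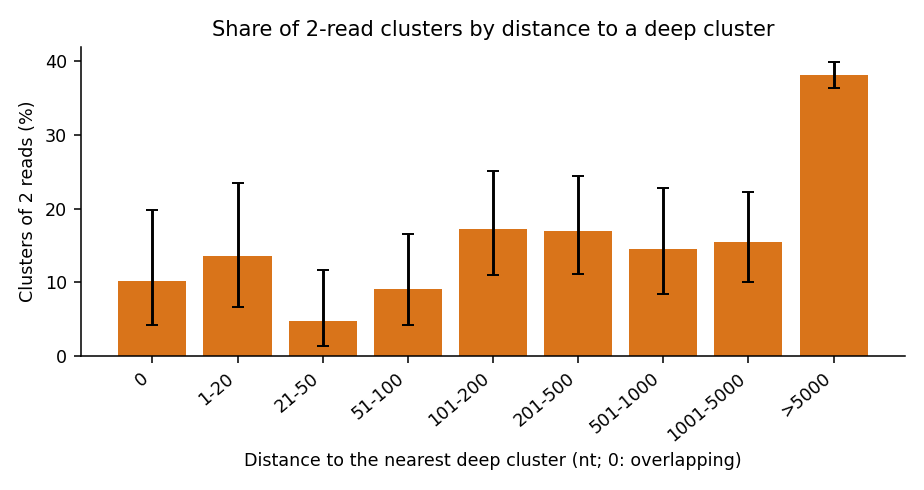
Share of clusters of 2 reads in percent (vertical axis) by distance in nt to the nearest deep cluster (horizontal axis), with exact 95% intervals. The share lies between 4.71% and 17.2% in every class up to 5000 nt and at 38.2% beyond.

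Neighbours from another block of the file came mainly from block 9, and these lay on 1 side only. Block 9 holds 663 clusters, most of them small. Within 1000 nt on the same strand, 105 shallow clusters of block 4 had a block 9 cluster, and in 105 of 105 it lay on the 5′ side (100%, 96.5 to 100). The distance ran from 8 to 982 nt with a median of 552 nt, and the 105 clusters came from 76 stretches. Seen from block 9, 79 of its 663 clusters (11.9%) had a shallow cluster of block 4 within 1000 nt, all on the 3′ side. Deep clusters had the same order, with 104 block 9 neighbours on the 5′ side, 0 on the 3′ side and 6 overlapping. A block 9 neighbour was less common for shallow than for deep clusters, at 2.70% against 10.02% (Fisher's exact p = 9.35e-22, with clusters of 1 stretch counted separately). Block 1, with 3635 clusters, was near 14 shallow clusters, 13 times on the 5′ side and 1 time overlapping, and block 7 was near 1. The other 7 blocks were near none within 1000 nt.

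Shallow and deep clusters had nearly the same strand share, and chromosome 13 held a smaller share of the shallow clusters than of the deep ones. Chromosome 13 also held a smaller share of the stretches without a deep cluster than of those with one. The plus strand held 49.7% of the shallow clusters (48.1 to 51.3) and 49.7% of the deep ones (46.7 to 52.7; Fisher's exact p = 1). Over 21 two-sided Fisher's exact tests on the 20 chromosomes and the strand, 2 (9.52%) passed a Benjamini-Hochberg adjusted p of 0.05, and in both the shallow share was lower. Chromosome 11 held 322 shallow clusters (8.29%, 7.44 to 9.20) and 137 deep ones (12.5%, 10.6 to 14.6; Fisher's exact adjusted p = 0.000902). Chromosome 13 held 138 (3.55%) and 65 (5.92%; Fisher's exact adjusted p = 0.00760). With each stretch counted once, chromosome 11 held 7.99% of the stretches without a deep cluster and 10.9% of those with one (Fisher's exact p = 0.0355, adjusted over the 21 tests 0.373), so the call on chromosome 11 did not hold. Chromosome 13 held 2.69% and 5.69% (Fisher's exact adjusted p = 0.0172). Of the 562 stretches with a deep cluster, 339 also held shallow ones, so these tests compare kinds of stretch and not shallow with deep clusters. The highest shallow share was on chromosome 2, with 360 clusters (9.27%) against 7.01% of the deep clusters (Fisher's exact adjusted p = 0.0680).

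The control touched few of these clusters. Control reads of block 3 overlapped 8 of 3883 shallow clusters (0.206%, 0.0890 to 0.406) and 23 of 1098 deep clusters (2.09%, 1.33 to 3.13). Deep clusters are wider, and per 10 kb of covered sequence 0.465 shallow and 2.64 deep clusters were overlapped. The part of width and of read number in the difference was not tested. Of the 185 control reads of the block, 15 (8.11%, 4.61 to 13.02) fell in shallow clusters, 59 (31.9%, 25.2 to 39.1) in deep ones and 114 in neither, where a read can touch both kinds. Set against the anti-Rbfox1 reads, that is 0.997 control reads per 1000 in shallow and 1.79 in deep clusters. The 384 control reads of other blocks touched no shallow cluster. Since overlapping reads were used to match the blocks, the overlaps in this paragraph are given as a description. The 3875 clusters without a control read are not shown to be free of background, because 0 reads still allow 1.62% of the control block's reads at a place.

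The 8 clusters with control reads were mostly near deep ones. Of them, 6 lay within 1000 nt of a deep cluster, against 17.7% of all shallow clusters. Fuller shallow clusters were near a deep one more often, at 66 of the 134 clusters of 9 reads. The part of cluster size in this was not tested. On the minus strand lay 7, while the plus strand held 49.7% of all shallow clusters and 30 of the 70 control clusters. These differences were not tested. The fullest, at chr5:122903574-122903635 (minus strand), held 9 anti-Rbfox1 and 2 control reads. The clusters at chr13:110846870-110846917 and chr13:58228587-58228647 (both minus strand) held 8 and 7 anti-Rbfox1 reads with 1 and 2 control reads. The cluster at chr16:44085810-44085860 (minus strand) held 7 and 2. The most control reads lay in the cluster at chr9:64563554-64563592 (minus strand), with 6 anti-Rbfox1 and 3 control reads, which overlapped a deep cluster. At chr2:32643890-32643916 (minus strand), 2 anti-Rbfox1 reads met 2 control reads. The remaining 2 were far from any deep cluster, at chr4:135848180-135848221 (plus strand, 4 and 2 reads) and chr4:86629092-86629159 (minus strand, 2 and 1). None of the 1833 lone shallow clusters, which are 47.2% of all, overlapped a control read. Among all shallow clusters 0.206% did, and the difference was not tested.

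Shallow clusters of blocks 1 and 9 had fewer neighbours. A same-strand cluster of the same block lay within 1000 nt of 52.8% of the shallow clusters in block 4 (51.2 to 54.4), against 16.3% of 3569 in block 1 (15.1 to 17.5; Fisher's exact adjusted p = 4.42e-248) and 6.58% of 653 in block 9 (4.81 to 8.77; Fisher's exact adjusted p = 5.28e-126), with Benjamini-Hochberg adjustment over 4 tests. Block 4 has more clusters than either, which bears on this share. Neighbouring clusters also count each other, so clusters of 1 stretch are not independent. The intervals and p-values of this share treat them as independent and overstate the certainty. The strand tests between blocks below have the same limit, since clusters of 1 stretch lie on 1 strand. Clusters of 2 reads made up 32.8% of its shallow clusters, 78.5% of those in block 1 and 61.1% of those in block 9, given as a description. The plus strand held 66.2% of the shallow clusters in block 1 (Fisher's exact adjusted p = 7.73e-47) and 52.1% in block 9 (Fisher's exact adjusted p = 0.272), compared with 49.7% in block 4. The blocks also differed in the read ends they hold. In block 1, 0% of reads shared their leftmost base with another on the strand, while 55.8% of the plus-strand and 17.6% of the minus-strand reads shared their rightmost base. In block 4, 50.9% of the plus-strand and 53.9% of the minus-strand reads shared their leftmost base, and 56.1% and 48.5% their rightmost. The part of this in the strand difference was not tested.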

How the data were processed

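Per the labels' protocols, RNA crosslinked in neurons was precipitated from a cytoplasmic fraction with anti-Rbfox1 or anti-Flag antibodies and made into iCLIP libraries. The deposited files list aligned reads, 1 per line, with positions in the mm9 build. Bowtie is named in the submitters' processing notes. Its settings are not stated there, nor is any removal of PCR copies or filter on clusters. No pair of reads shares start, end and strand, so counts do not measure molecules.

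Blocks, clusters, stretches and neighbours were computed as described in the text. Regions of the libraries overlapped if they had 1 base or more in common on a strand. Intervals are exact Clopper-Pearson at 95%, and 3 counts were the limit for a count of 0. Differences between shares were tested with Fisher's exact test (two-sided, p-values adjusted after Benjamini and Hochberg). The steps were tested on simulated data. Members, lists and regions were chosen with earlier results of these data known. Regions named are the fullest shallow clusters, the stretches with most shallow clusters, with or without deep ones, and all clusters with control reads. Transcript regions, motifs, gene lists and cell type markers were planned and not analysed here, for want of an mm9 genome. Python 3.11.15, numpy 2.4.6, pandas 2.3.3, scipy 1.17.1 and matplotlib 3.10.9 were used.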

Additional observations from a re-analysis of the deposited data

How the results depend on the processing

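Of 53 alternative values, 43 stayed within the interval, within 1.5 times the count or on their side of the threshold, 6 moved, 1 lost its call and 3 turned a direction. The lost call is the lower shallow share on chromosome 11. Its adjusted Fisher's exact p was 0.373 with stretches as units, against 0.000902 with clusters. Stretches as units compare those without a deep cluster with those holding one. The other settings for chromosome 11 gave adjusted Fisher's exact p from 0.000157 to 0.0155, and chromosome 13 gave 0.000537 to 0.0236 over all settings. The 3 that turned all concern the strand difference between shallow and deep clusters, which was -0.02 percentage points. It became 1.30 with a joining distance of 50 nt (Fisher's exact p = 0.473), 1.65 for clusters of 2 reads only (exact p = 0.434) and 3.36 with stretches as units (exact p = 0.159), none past 0.05. The share of shallow clusters with a deep cluster within 1000 nt, 17.7%, was 20.5% and 14.5% with joining distances of 10 and 50 nt. It was 15.04% and 19.5% within 500 and 2000 nt. Among the clusters left without those overlapping a deep one or within 50 nt of it, it was 12.6%. The wider and narrower distances change it by construction. Among near clusters, the share of 2 reads was 18.2% instead of 12.95% with a joining distance of 10 nt. The number of shallow clusters ranged from 3499 to 4021, and their overlap with the control, 0.206%, from 0.114% to 0.209%. Control reads within 50 nt, overlapping or not, were present at 0.412%. The joining distance of 15 nt, stretches as units and the removal of clusters within 50 nt of a deep one were added with the data in view, as were the tests on chromosomes, on block 9 and on other blocks. No paired analysis was possible because there is 1 library per antibody. Settings for transcript regions and the motif were not run. The 185 control reads of the block limit what can be said of single clusters.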

Other observations

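A few shallow clusters were built on 1 position; they were picked with their values in view. In 3 clusters a single crosslink position held 7 reads. At chr5:130689575-130689614 (mm9, plus strand) that left 1 of 8 reads elsewhere, at chrX:35966489-35966536 (plus strand) 9 reads lay at 3 positions, and at chr2:73655795-73655870 (minus strand) 9 reads lay at 3. None of the 3 was within 1000 nt of a deep cluster or overlapped a control read. Among all shallow clusters these shares were 17.7% and 0.206%, and 66 of the 134 clusters of 9 reads were near a deep cluster. The differences were not tested. The narrowest shallow cluster covered 17 nt at chr5:123614900-123614916 (plus strand) with 3 reads. The widest covered 111 nt at chr5:103341419-103341529 (minus strand) with 8 reads at 8 positions, and lay 104 nt from a deep cluster. A gap of 16 to 20 nt between positions was present in 39 of 3883 shallow clusters (1.00%) and 68 of 1098 deep ones (6.19%), which a joining distance of 15 nt would divide.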
